A study of Mus musculus with 43 samples.

Results

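DNA methylation was compared between polypoid dysplasia and the non-neoplastic colonic epithelium of the same mice, to ask at which CpG sites this step changed methylation differently in mice fed no folic acid (FA) and mice fed a high dose. The members are the 25 libraries of the second cohort out of 43 in the series, from 12 mice, and the CCCGGG sites with at least 20 reads in all 25. Of 173449 sites listed on the mouse genome build mm9, 8232 met that minimum, and the 18 spiked standards were left out. For each mouse and site, the epithelium was subtracted from the polyp, and the difference on 8 mg FA minus the difference on 0 mg FA is called the interaction. A positive interaction means that the change from epithelium to polyp was higher (less negative or more positive) on 8 mg FA than on 0 mg FA.

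All mice were female Swiss Webster mice that received the carcinogen azoxymethane (AOM) at 7 weeks of age on chow with 2 mg FA per kg and then 4 cycles of dextran sulfate sodium (DSS), which injures the colonic lining. After the first DSS treatment they were assigned to 0 or 8 mg FA per kg of chow for 16 weeks, and they were killed at 27 weeks of age. The groups were non-neoplastic epithelium (0ND, 6 libraries) and polyps (0P, 6 libraries) of 6 mice on 0 mg FA, and the same tissues of 6 mice on 8 mg FA (8ND, 6 libraries, and 8P, 7 libraries, since mouse 1856 gave 2 lesions, which were averaged). Neither untreated mice nor mice without colitis belong to the comparison, and every library came from cells cut by laser from formalin-fixed sections. The labels call the first tissue non-neoplastic cells, and the paper used both epithelial cells alone and epithelium with lamina propria. The labels do not state which of these a library holds, and it is called epithelium here in either case. The files assign no site to a gene, so the tissue labels could not be checked against cell type markers. A change in the share of a cell type and a change of methylation within cells cannot be told apart in such samples.

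Folate carries the carbon units from which cells make S-adenosylmethionine, the methyl donor for DNA methylation, and also those used to build nucleotides. In mammalian DNA most CpGs far from CpG islands are methylated, while CpG islands at gene starts are mostly unmethylated. Tumors of the colon are known for loss of methylation at normally methylated sites and gain at some islands. DREAM, the assay used here, cuts CCCGGG first with SmaI, which methylation of the central CpG blocks, and then with XmaI, which cuts either way, so reads from methylated and unmethylated copies begin at different bases. The methylation level of a site is the percentage of its reads that were methylated, used here after the authors' adjustment with standards of known methylation unless stated to be raw.

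The libraries held 1774213 to 6876845 reads on sites in 8ND, 2863002 to 5873580 in 0ND, 2887279 to 7032575 in 0P and 4892730 to 13960168 in 8P, and the median number of reads per tested site ran over the libraries from 89 to 895. The polyp library held 0.624 to 1.95 times the reads of the epithelium library in mice on 0 mg FA and 1.74 to 6.72 times in mice on 8 mg FA, and the part of this difference in depth in the results was not tested. In 2 libraries many sites of intermediate level were read as exactly 0 or 100% methylated. Of the 1495 sites with a mean level from 5 to 80%, 49.8% were at one of these extremes in the polyp of mouse 1805 (0 mg FA) and 31.0% in the epithelium of mouse 1830 (8 mg FA), against 0 to 13.8% in the other 23 libraries. Those 2 libraries had a median of 100 and 79 reads at these sites. The total count of calls, the means over all sites and over the classes from 5 to 80%, the interactions by spacing and the named sites are given with and without both mice. The calls per level class and the means under 5% and at 80% or more are given with all mice only.

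**Figure D1:**
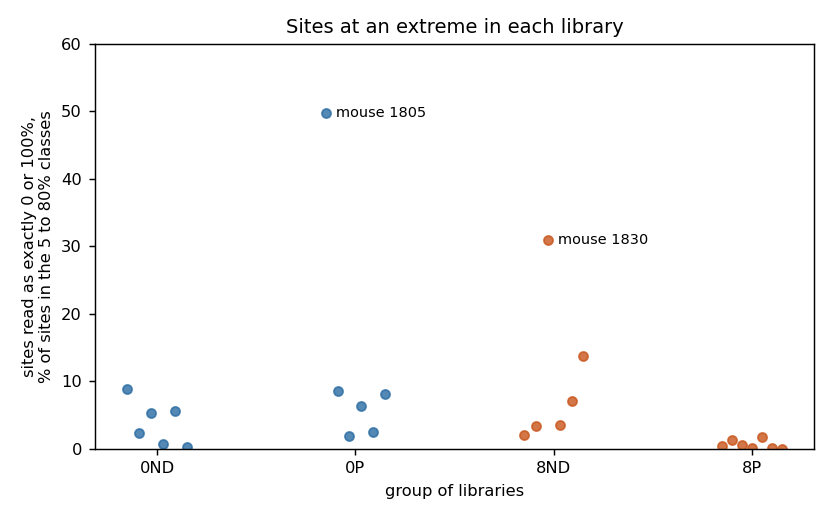
Share of sites read as exactly 0 or 100% methylated in each library, in percent of the 1495 sites with a mean level from 5 to 80%, by group (1 point per library, blue for 0 mg FA and orange for 8 mg FA). The polyp of mouse 1805 (49.8%) and the epithelium of mouse 1830 (31.0%) lie above all other libraries.

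The interaction was called at 164 of the 8232 sites (1.99%), and 134 of these were positive (1.63% of sites tested) and 30 negative (0.364%). A site was called, by the study's criteria, when the 12 within-mouse differences, tested between diets with equal variances and two-sided, gave an unadjusted p under 0.05 and the interaction exceeded 5 percentage points. The positive share of the calls was 81.7% (95% Wilson interval 75.1 to 86.9, for counting error alone, with adjacent sites treated as independent), beside 56.4% positive among all tested sites. By mean level of methylation, the positive share of tested sites was 54.5% under 5%, 66.7% at 5 to 20% and 66.1% at 20 to 50%. It was 68.0% at 50 to 80% and 48.2% at 80% or more. When each library was centered on its own mean, the positive share of the calls was 70.9%. Called positive interactions had a median of 17.3 points and reached 48.7, and called negative ones had a median of -12.7 and reached -40.2.

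An unadjusted p under 0.05 was reached at 292 sites, 3.55% of those tested. The nominal share of this threshold, if no site differs, is 0.05. Sites of very low level need not follow it: 75.6% of tested sites were under 5%, and 42.1% had a change of exactly 0 or equal changes. These shares therefore do not say whether more or fewer sites passed than by chance. With Benjamini-Hochberg adjustment over all 8232 sites this test left 0 sites. In limma, 319 sites had an unadjusted p under 0.05 and 0 passed after adjustment, the smallest adjusted p being 0.536. A quasi-binomial logistic model of the methylated and unmethylated reads gave 843 sites at an unadjusted p under 0.05 and 65 after adjustment, of which 33 were positive and 8 were among the 164. No single site is therefore established by the main test once all sites are counted, and the calls are described below as a set. Without mice 1805 and 1830, 139 sites were called, 102 of them positive. Of the 164 calls, 85 (51.8%) were among those 139, and all 164 kept their sign.

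In raw percentages, 150 sites were called (1.82%), 114 positive and 36 negative. The calls shared by both kinds of percentage numbered 137, which is 83.5% of the adjusted calls and 91.3% of the raw ones. All 137 had the same sign in both, with 109 positive and 28 negative.

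The calls were unevenly spread over the levels of methylation. Each site was placed in a class by the mean of its 4 group means, so that the class favored neither sign. Of the 6220 sites under 5%, which are 75.6% of those tested, 0.386% were called, 23 positive and 1 negative. A call needs an interaction above 5 points, which few sites of so low a level can reach, so the threshold itself limits this share. Among the 478 sites from 5 to 20%, 9.41% were called, and 44 of the 45 were positive. Among the 507 sites from 20 to 50%, 9.07% were called, 41 of 46 positive. In the class from 50 to 80%, with 510 sites, 5.1% were called, 22 of 26 positive. At the 517 sites of 80% or more, 4.45% were called and the direction was the other one, with 4 positive and 19 negative. This split is from all mice, 1805 and 1830 included. In the polyp of 1805 and the epithelium of 1830, a reading of 0% raises the interaction and one of 100% lowers it. Of the sites from 5 to 80%, 36.5% were at 0% and 13.3% at 100% in the former, and 22.2% and 8.76% in the latter. The part of these 2 libraries in the split was not tested.

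**Figure D2:**
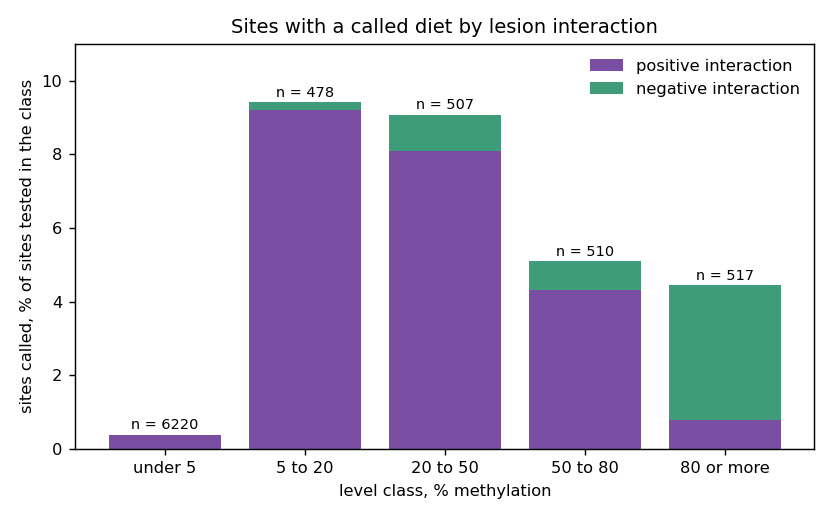
Sites with a called interaction in each level class, in percent of the sites tested in the class, split by sign (n above each bar is the number of sites tested). Positive calls fill most of each bar below 80% methylation, and negative calls fill most of the bar at 80% or more (19 of 23).

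The positive calls were mostly sites that lost methylation in polyps on 0 mg FA and changed little or gained on 8 mg FA. At the 134 positive calls the median level was 28.4% in 0ND, 12.6% in 0P, 19.4% in 8ND and 20.7% in 8P, and the median change from epithelium to polyp was -13.4 points on 0 mg FA and 2.60 points on 8 mg FA. The change was negative on 0 mg FA and positive on 8 mg FA at 87 of the 134 (64.9%). Among all tested sites this share was 17.0%, but 42.1% of those had a change of exactly 0 or equal changes. Another 43 lost methylation on both diets with the larger loss on 0 mg FA, and 4 gained on both. Both tissues contributed. The epithelium was lower on 8 mg FA at 125 of the 134 (93.3%), with a median difference between diets of -8.31 points, and the polyps were higher on 8 mg FA at 128 (95.5%), with a median difference of 8.35 points. These 2 differences, like the changes on the 2 diets, are the parts of which the interaction is made. The calling itself therefore favors such signs, in the positive calls and in the negative ones below.

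The 30 negative calls lay mostly at highly methylated sites that lost methylation in polyps on 8 mg FA. Their median level was 86.9% in 0ND, 89.6% in 0P, 91.9% in 8ND and 77.8% in 8P. On 0 mg FA they were higher in polyps and on 8 mg FA lower at 17 sites, 8 were lower on both diets and 5 higher on both. Here the epithelium differed between diets by more than the polyps at only 4 of the 30 sites, while for the positive calls this was so at 64 of 134.

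**Figure D3:**
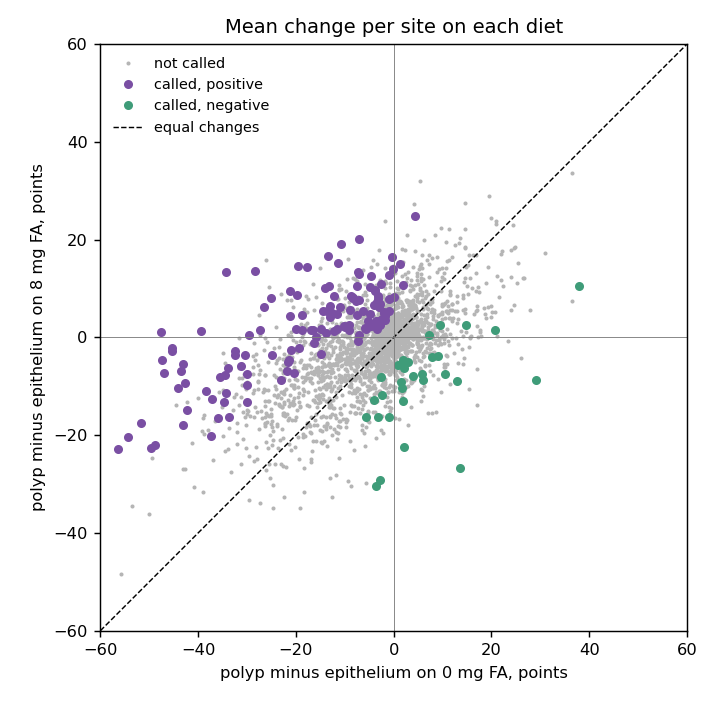
Mean change from epithelium to polyp at each of the 8232 sites on 0 mg FA (horizontal axis) and on 8 mg FA (vertical axis), in percentage points, with called sites in color. The 134 positive calls lie above the dashed line of equal changes and mostly left of 0, and the 30 negative calls lie below it.

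Averaged over all tested sites, methylation fell from epithelium to polyp on 0 mg FA, while the smaller change on 8 mg FA did not pass the test. The change was -1.46 ± 0.650 points (SD, 6 mice) on 0 mg FA, negative in 6 of 6 mice (exact sign-flip p = 0.0312, the smallest 6 mice can give), and -0.553 ± 0.595 points on 8 mg FA, negative in 5 of 6 mice (exact sign-flip p = 0.0938). The interaction was 0.912 points (two-sided exact permutation p = 0.0368 over 924 assignments of the mice to the diets, of which the smallest possible is 0.00216). In raw percent the interaction was 0.606 points (exact permutation p = 0.305), and without mice 1805 and 1830 it was 0.610 points (exact permutation p = 0.135). Leaving out mouse 1805, 1807, 1809, 1830, 1841 or 1848 alone gave 0.750 to 0.855 points with exact permutation p from 0.0606 to 0.0736. On the scale of log2 odds of methylation (pseudocount of 1 read) the mean was -0.730 log2 units (exact permutation p = 0.00433). At sites with few methylated reads this scale falls as the number of reads rises, and most tested sites were under 5%. The ratio of polyp to epithelium reads ran higher on 8 mg FA than on 0 mg FA. Depth and methylation therefore cannot be told apart in this value, and the part of depth was not tested.

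Sites from 20 to 50% had the smallest p of the 5 classes. On 0 mg FA their mean change from epithelium to polyp was -11.1, -10.3, -7.93, -5.93, -4.88 and -4.54 points in mice 1805, 1809, 1807, 1820, 1839 and 1808. On 8 mg FA it was -5.84, -4.67, -2.76, -1.21, 0.766 and 1.37 points in mice 1858, 1856, 1800, 1848, 1830 and 1841. All 6 mice on 0 mg FA lost methylation at these sites, whereas 2 of the 6 on 8 mg FA gained, and the 2 groups overlapped only through mice 1858 and 1856. The means were -7.45 ± 2.80 and -2.06 ± 2.90 points (SD, 6 mice each), an interaction of 5.39 points (exact permutation p = 0.0130, or 0.0649 when adjusted over the 5 classes by Benjamini-Hochberg). It stayed between 4.66 and 6.15 points when each mouse was left out in turn, with an exact permutation p of at most 0.0281, and it was 4.09 points (exact permutation p = 0.0476) without mice 1805 and 1830.

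The 4 groups behind this value were 36.6% ± 2.48 in 0ND, 29.2% ± 3.13 in 0P, 33.1% ± 3.64 in 8ND and 31.0% ± 2.91 in 8P (SD, 6 mice each). Between diets (8 mg minus 0 mg FA) the epithelium differed by -3.52 points and the polyps by 1.87 points. The epithelium thus made the larger part of the interaction. The interaction was positive at 66.1% of the 507 sites, and its median over them was 5.89 points. This share was 66.7% at 5 to 20%, 68.0% at 50 to 80% and 56.4% over all tested sites.

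Sites from 50 to 80% lost methylation in polyps on both diets. The change ran from -18.0 to -4.96 points (median -12.2) on 0 mg FA and from -9.97 to -0.824 points (median -5.85) on 8 mg FA, negative in 6 of 6 mice on each diet (exact sign-flip p = 0.0312 in both). The ranges overlapped widely. The means of -11.5 ± 5.0 and -6.11 ± 3.51 points differed by 5.42 points (exact permutation p = 0.0541, adjusted 0.108). Without mouse 1839, 1800 or 1858 the interaction was 6.74, 6.19 and 6.19 points (exact permutation p = 0.0216, 0.0476 and 0.0476), and without mice 1805 and 1830 it was 3.75 points (exact permutation p = 0.190). As a median over the sites it was 3.13 points (exact permutation p = 0.288). The group levels were 73.4% in 0ND, 61.8% in 0P, 68.8% in 8ND and 62.7% in 8P, so the polyps of the 2 diets differed by 0.812 points and the epithelium by -4.61 points.

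Sites from 5 to 20% changed by -0.918 ± 1.87 points on 0 mg FA and by 1.99 ± 2.84 points on 8 mg FA, an interaction of 2.91 points (exact permutation p = 0.0649, adjusted 0.108). It was 1.90 points (exact permutation p = 0.230) without mice 1805 and 1830 and 3.81 points (exact permutation p = 0.0152) without mouse 1856. Highly methylated sites, of 80% or more, fell in all mice, with changes of -5.56 ± 2.95 points on 0 mg FA and -4.90 ± 2.60 points on 8 mg FA, and their interaction of 0.662 points was smaller than the SD on either diet (exact permutation p = 0.675, adjusted 0.686). The sites under 5% had means of 0.289% in 0ND and 0.437% in 0P, with 6 of 6 mice higher in polyps, and of 0.311% in 8ND and 0.503% in 8P, with 5 of 6 mice higher. Their interaction was 0.0445 points (exact permutation p = 0.686, adjusted 0.686), and 0.127 points (exact permutation p = 0.0455) without mouse 1856. On log2 odds it was -1.08 log2 units (exact permutation p = 0.00216), a value that also depends on the number of reads at such sites. With centered libraries it was -0.868 points (exact permutation p = 0.0325), since centering takes the interaction over all sites off every class.

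In raw percentages the spread between mice on 8 mg FA was wider, with an SD of 6.04 points against 2.90 at sites from 20 to 50%. The interaction was 3.99 points at 20 to 50% (exact permutation p = 0.182), 4.20 points at 50 to 80% (exact permutation p = 0.199) and 1.92 points at 5 to 20% (exact permutation p = 0.312). The authors' adjustment multiplied the odds of methylation in each library by 1 factor. The factor of the polyp divided by that of the epithelium was 0.815 to 1.05 in mice on 0 mg FA and 0.953 to 1.19 in 5 mice on 8 mg FA, but 0.591 in mouse 1841. In that mouse the raw change at 20 to 50% was 9.51 points and the adjusted one 1.37 points. Without mouse 1841 the raw interaction was 1.72 points at 20 to 50% (exact permutation p = 0.357) and 2.26 points at 50 to 80% (exact permutation p = 0.394). The part of the polyps also turned with the unit: 8P was 1.87 points above 0P at 20 to 50% in adjusted percentages and differed from it by -1.35 points in raw ones, while 8ND minus 0ND was -3.52 points in adjusted and -5.34 points in raw percentages.

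**Figure D4:**
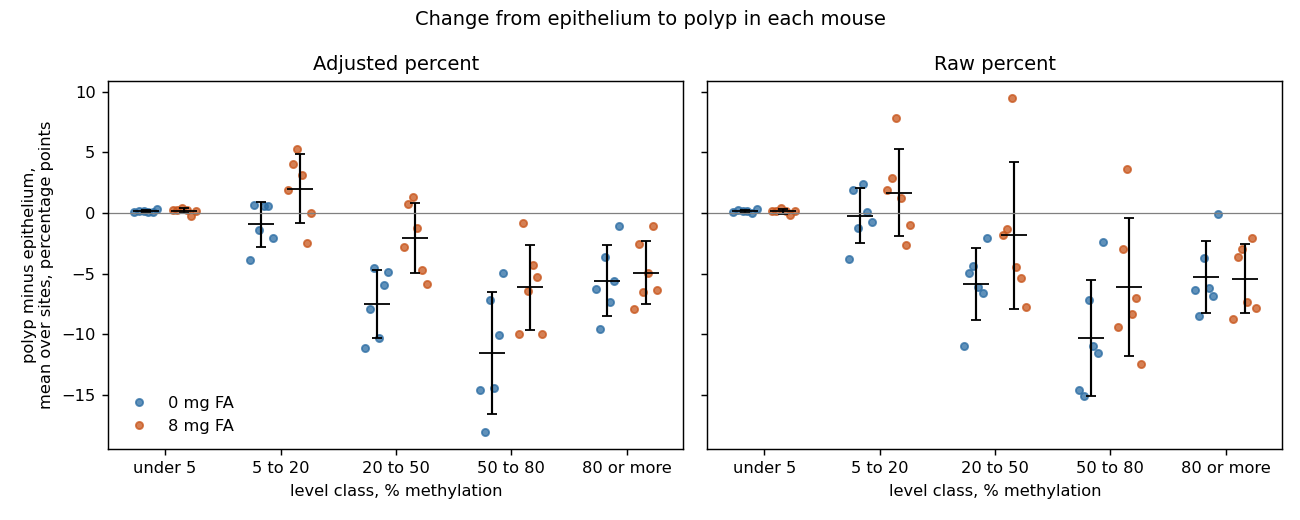
Change from epithelium to polyp in each mouse, averaged over the sites of each level class, in percentage points of adjusted (left) and raw (right) methylation. Points are mice, bars are mean ± SD of 6 mice, and the sites from 20 to 50% show the wider gap in adjusted percent (-7.45 against -2.06) than in raw percent (-5.83 against -1.84).

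Epithelium libraries fell into 2 kinds by the share of reads on their 100 most-read sites, over 8% in 3 mice of each diet (1805, 1808 and 1820 on 0 mg FA, and 1830, 1848 and 1858 on 8 mg FA) and under 8% in the others, while no polyp library exceeded 8%. The interaction at 20 to 50% was 5.11 points within the first kind (exact permutation p = 0.200) and 5.68 points within the second (exact permutation p = 0.100), where 3 mice against 3 cannot give less than 0.100. At 50 to 80% it was 5.57 and 5.27 points.

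Sites were next divided by the spacing of CCCGGG, the only annotation that the positions give by themselves. Of the 5623 tested sites with 2 or more other listed sites within 1 kb, 0.943% were called. Among the 2578 sites with 1 such neighbor 4.23% were called, and among the 31 with none 6.45%, which is 2 sites. The mean level of the first kind was 5.76% in 0ND and that of the second 30.3%. The interaction was 2.07 points at sites with 1 neighbor (exact permutation p = 0.0238, or 0.0714 when adjusted over 3 spacing classes) and 0.371 points at sites with 2 or more (exact permutation p = 0.104, adjusted 0.156). In raw percent the first value was 1.48 points (exact permutation p = 0.195, adjusted 0.584). Without mice 1805 and 1830 the values were 1.37 points (exact permutation p = 0.0873) and 0.259 points (exact permutation p = 0.278). Within the levels from 20 to 80% the spacing classes lay closer, with 5.98 points over 697 sites with 1 neighbor and 4.34 points over 307 sites with 2 or more (4.13 and 3.68 points without those mice), and their difference was not tested.

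The sign of the interaction was compared between neighboring sites. Of the 4276 adjacent pairs of tested sites within 1 kb, 51.0% had the same sign, and where both had levels from 5 to 80% (548 pairs) the interactions had the same sign in 71.9%. Where, in addition, 1 of the 2 was called (71 pairs), this share was 87.3%. In 21 pairs both sites were called, and both members had the same sign in all 21. These pairs lay 110 to 260 bp apart, and sites so close can be the 2 ends of the same cut fragments. Of all calls, moreover, 81.7% were positive. The shares are therefore not the agreement of independent sites. Among the 21 pairs, chosen after their values were seen, were a pair on chromosome 6 at positions 50328253 and 50328454 (43.2 and 42.9 points) and a pair on chromosome 11 at 98973487 and 98973678 (34.0 points each). At the chromosome 6 pair the mean level was 59.1% and 59.8% in 0ND, 13.8% and 12.4% in 0P, 17.8% and 21.7% in 8ND, and 15.7% and 17.1% in 8P, so that the epithelium on 8 mg FA stood near the polyps of both diets.

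The differences of the mice on the 2 diets did not overlap at 27 sites (0.328%), of which 24 had a positive interaction and 19 were called, 17 positive and 2 negative. Random assignment of the mice to the diets would separate them fully at a fraction of 0.00216 of sites without ties. Sites A to L were named by a rule: among sites called with the same sign in adjusted and raw percentages, the 6 most positive and 6 most negative without overlap, filled by size where fewer did not overlap. All carry an adjusted p of 0.668, so they illustrate the calls and are not established one by one. Each had at least 24 reads in every library.

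Site A, on chromosome 7 at position 105335197, had the largest interaction, 48.7 points (SE 8.41). On 0 mg FA its level was 55.6 to 80.9% in epithelium with a median of 68.1%, and 7.11 to 50.2% in polyps with a median of 16.0%, and on 8 mg FA it was 12.1 to 37.2% in epithelium (median 24.8%) and 14.0 to 42.8% in polyps (median 25.2%). All 6 mice on 0 mg FA lost methylation, with changes from -73.8 to -19.2 points, and those on 8 mg FA changed by -15.8 to 14.4 points. The 0ND range lay wholly above that of 8ND, while the polyps of both diets overlapped. A neighbor at position 105335416 was called too, with 37.6 points, and site C lies on the same chromosome at 105319497.

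Site C had an interaction of 32.8 points (SE 7.65). It fell from a median of 30.8% in 0ND to 9.03% in 0P and stood at 17.4% in both 8ND and 8P, with a range of 0 to 26.1% in 8ND and 13.9 to 35.1% in 8P. It had as few as 25 reads in an epithelium library and 26 in a polyp library, fewer than any other positive named site. The value of 0% in 8ND was that of mouse 1830. Without mice 1805 and 1830 the interaction at site C was 26.0 points.

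Site B, on chromosome 1 at position 92174779, had an interaction of 36.6 points (SE 8.25). It was methylated at 37.3 to 81.9% in 0ND with a median of 47.3%, and at 0 to 24.5% in 0P with a median of 4.57%, with changes from -57.4 to -37.3 points in the mice on 0 mg FA. The 8ND values were 9.98 to 51.9% with a median of 27.3%, and those of 8P had a median of 21.0% and a highest value of 34.1%. On 8 mg FA 5 of the 6 mice also lost methylation here, with changes from -35.7 to 21.0 points, so the gap to the mice on 0 mg FA was narrow.

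Site D, on chromosome 8 at position 125726132, had an interaction of 28.9 points with a wide error (SE 11.7). It fell in all mice on 0 mg FA, from a median of 48.3% to 23.0%. On 8 mg FA 4 of 6 mice fell, and mouse 1830 rose from 0 to 55.9%. Without mice 1805 and 1830 its interaction was 18.7 points.

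Site E, on chromosome 9 at position 47661742, had an interaction of 28.9 points (SE 5.27), from medians of 60.7% in 0ND, 27.8% in 0P, 36.3% in 8ND and 33.9% in 8P. Site F, on chromosome 2 at position 26992189, had an interaction of 25.6 points (SE 5.11), from medians of 33.3%, 12.3%, 18.2% and 23.6% in the same order. At both, every mouse on 0 mg FA lost methylation, with changes from -49.1 to -25.2 points at site E and from -32.7 to -7.40 points at site F. On 8 mg FA the changes ran from -18.8 to 7.51 points at site E and from -2.31 to 10.9 points at site F, where 5 of 6 mice gained. The polyp of mouse 1805 was read as 0% at site F. Without mice 1805 and 1830 the interaction was 42.6 points at site A, 38.2 at site B, 28.9 at site E and 23.3 at site F.

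**Figure D5:**
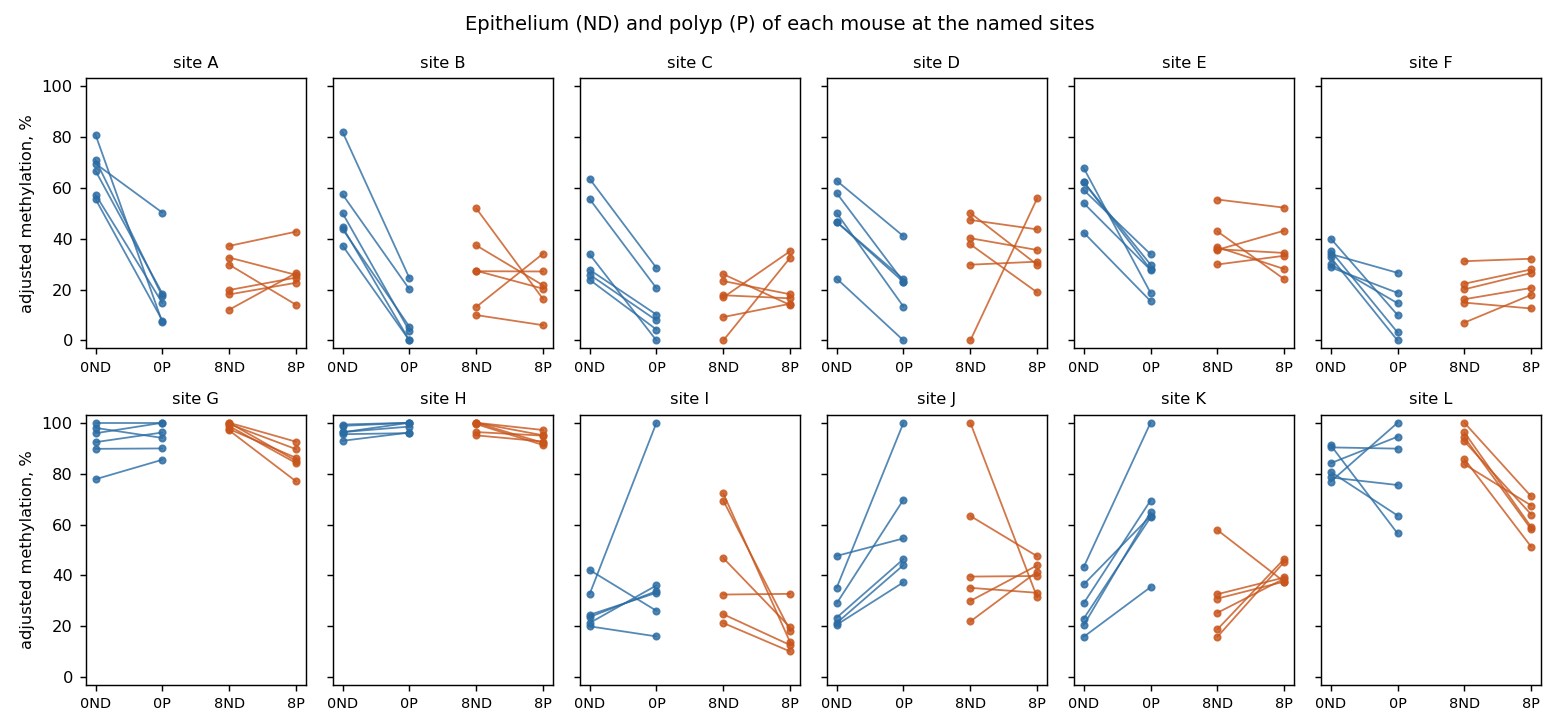
Adjusted methylation in percent at sites A to L, with 1 line per mouse from epithelium (0ND or 8ND) to polyp (0P or 8P), blue for 0 mg FA and orange for 8 mg FA (2 lesions of mouse 1856 averaged). Sites A to F fall on 0 mg FA from medians of 30.8 to 68.1% in 0ND, and sites G and H fall on 8 mg FA in all 6 mice.

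Sites G and H were the 2 negative calls without overlap, and both were nearly fully methylated in epithelium. Site G, on chromosome 9 at position 28482745, had a median of 99.1% in 8ND (97.0 to 100%) and of 85.6% in 8P (77.0 to 92.5%), and all 6 mice on 8 mg FA lost methylation, with changes from -20.0 to -7.45 points. On 0 mg FA its median was 94.1% in 0ND, from 77.8 to 100%, and 95.1% in 0P, from 85.5 to 100%, with changes from -3.95 to 7.66 points. The interaction was -15.0 points (SE 2.46). Site H, on chromosome 10 at position 59453411, moved less, with -6.55 points (SE 1.31): its median fell from 99.7% in 8ND to 93.8% in 8P and went from 96.3% in 0ND to 99.2% in 0P. Without mice 1805 and 1830 the interactions were -15.0 points at site G and -6.74 points at site H.

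Sites I and J lie 157 bp apart on chromosome X, at positions 69519970 and 69519813, and had the most negative interactions, -40.2 points (SE 15.2) and -37.9 points (SE 15.5). In females 1 of the 2 X chromosomes is inactive in each cell and carries most of the methylation at its CpG islands. In 0P the medians were 33.5% and 50.5%, and at both sites the polyp of mouse 1805 was read as 100% from 36 reads. Sites so close can share cut fragments, so the 2 readings need not be separate. In 8ND the medians were 39.6% and 37.3%, and at site J the epithelium of mouse 1830 was read as 100% from 59 reads. The groups overlapped at both, and without mice 1805 and 1830 the interactions were -23.0 and -18.8 points and no longer met the criteria. Over the 124 tested sites of chromosome X the interaction was 2.16 points (exact permutation p = 0.197, and 0.968 points with exact permutation p = 0.556 without those mice), with 3 positive and 3 negative calls.

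Site K, on chromosome 7 at position 149641088, gained methylation in polyps. It rose in all mice on 0 mg FA, from a median of 26.0% in 0ND (15.9 to 43.3%) to 64.1% in 0P (35.4 to 100%), and from a median of 28.1% in 8ND to 39.0% in 8P, with 5 of 6 mice on 8 mg FA higher. The interaction was -27.4 points (SE 9.15), and it was also -27.4 points without mice 1805 and 1830. Site L, on chromosome 15 at position 87564630, fell in all 6 mice on 8 mg FA, from a median of 93.5% in 8ND (83.7 to 100%) to 61.5% in 8P (51.2 to 71.0%), and changed by -34.7 to 23.1 points on 0 mg FA. Its interaction was -26.7 points (SE 8.89), or -21.6 points without those mice.

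The 2 lesions of mouse 1856 give the only measure of how far polyps of 1 mouse differ. At the called sites their levels lay a median of 7.01 points apart, and at the tested sites from 20 to 80% a median of 10.8 points. The median size of the called interactions was 16.8 points, and at 28 of the 164 called sites the gap between these lesions was larger than the interaction.

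Epithelium of the first cohort, which the interaction did not use, allowed the epithelial part to be set beside other libraries. It held 5 libraries of 0ND and 6 of 8ND, and 8 mice gave epithelium to both cohorts, which are therefore not separate animals. The labels do not state whether the non-neoplastic tissue of the 2 cohorts was cut alike, with or without lamina propria. Of the 134 positive calls, 117 had at least 20 reads in all of these libraries, and the first-cohort epithelium was lower on 8 mg FA at 68 of them (58.1%), with a median difference of -1.72 points. At the positive calls from 5 to 80% methylation it was lower at 58 of 92 (63.0%), beside 64.3% of all 1354 tested sites of that range. In the second cohort the same shares were 92.4% and 62.9%. In the first cohort the called sites thus had a lower epithelium on 8 mg FA about as often as all sites of that range, and this was not tested further. Of the 30 negative calls, 26 were covered, and 8ND was lower than 0ND at 61.5% of them in the first cohort and at 19.2% in the second.

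Among the named sites, the first cohort gave for site A 57.6% ± 9.10 in 0ND (SD, 5 mice) and 31.6% ± 11.5 in 8ND (SD, 6 mice). For site B the values were 45.2% ± 9.06 and 30.8% ± 12.8, for site D 51.7% ± 6.95 and 41.8% ± 8.28, for site E 43.6% ± 6.04 and 37.8% ± 6.56, and for site F 28.7% ± 11.2 and 23.8% ± 6.51. These 5 were lower on 8 mg FA in the mean, with the widest gap at site A. Site C, which had as few as 18 reads in these libraries, went the other way from the second cohort, with 21.4% ± 10.6 in 0ND and 34.1% ± 23.0 in 8ND. At sites I, J and K the first-cohort means were 31.7%, 36.6% and 27.8% in 0ND and 31.9%, 38.5% and 31.8% in 8ND. Sites G, H and L were lower on 8 mg FA in the first cohort, at 95.6%, 98.5% and 87.5% in 0ND and 92.7%, 97.9% and 83.4% in 8ND, whereas their 8ND means were above those of 0ND in the second cohort.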

How the data were processed

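Cells were microdissected from fixed colon, and their DNA was cut and sequenced by DREAM with 18 cycles of amplification, per the labels. The authors mapped the reads (the labels name Bowtie2, SAMtools and mm9, while the methods speak of the human genome) and deposited counts of methylated and unmethylated reads per site, a raw percent and a percent adjusted with the spiked standards. Checks showed the raw percent to equal methylated over all reads, and the adjusted percent to differ from it by 1 factor of the odds in each library.

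From the adjusted percent, within-mouse differences and their interaction were computed per site in Python 3.11.15 (numpy 2.4.6, scipy 1.17.1, pandas 2.3.3), with limma 3.58.1 and a quasi-binomial logistic model (adjustment factor as offset) in R 4.3.3. Mice were paired by the animal numbers in the labels. Same-mouse deviations correlated by -0.0347 to 0.340 over sites (median 0.0280). Class means were compared by exact permutation of mice between diets, or by sign flips within a diet (two-sided throughout). The main per-site test, limma and the quasi-binomial model were first tested on simulated data.

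The members, classes and lists were chosen with earlier results of these data known. Amplified reads are not independent molecules, so intervals cover counting error only. Without a genome of build mm9, sites were not assigned to genes or repeats, and no sequence is given. Libraries of mice on 2 mg FA were not used here.

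Alternatives were raw percent, minimums of 10 and 50 reads, centered libraries, no pairing, log2 odds (pseudocount 1 read), other tests, a threshold of 10 points, each lesion of mouse 1856 alone, each mouse left out, medians, and mice by library kind. Added after the data were seen were the results without mice 1841 and 1856, without 1805 and 1830, raw percent without 1841, the second library kind and log2 odds per class.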

Additional observations from a re-analysis of the deposited data

Results flagged for a closer look

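The change from epithelium to polyp over all sites differed between the diets by 0.912 points, and over the sites from 20 to 50% by 5.39 points, each with an exact permutation p under 0.05 before adjustment over the level classes. In 36 sets of 6 mice (the level classes and named sites on each diet), 3 held a mouse far from the other 5 by Dixon's criterion, and chance gives about 1 in 20, or 1.8. Mouse 1856 changed by -0.222 points over the sites under 5%, the only decrease on 8 mg FA there. Mouse 1830 rose by 55.9 points at site D on 8 mg FA, from an epithelium library with 31.0% of its intermediate sites at 0 or 100%. Mouse 1805 rose by 67.3 points at site I on 0 mg FA, to a polyp read as 100% from 36 reads. The causes were not tested.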

How the results depend on the processing

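The interaction at 20 to 50% stayed positive under all 26 alternatives and past an exact permutation p of 0.05 under 22. It was weaker with raw percent (3.99 points), raw percent without mouse 1841 (1.72), and within the mice of each library kind (5.68 under 8% and 5.11 over 8%, where 0.100 is the smallest p). The mean over all sites was positive and past 0.05 under 9 of 25 alternatives and negative and past it under 1, log2 odds. It was 0.606 points with raw percent, 0.205 with raw percent without mouse 1841, 0.833 with the first lesion of mouse 1856 alone, 0.787 and 1.04 within the library kinds, 0 as a median over sites, 0.550 with at least 50 reads (exact permutation p = 0.0390), 0.911 without mice 1841 and 1856, 0.610 without 1805 and 1830, and 0.750 to 1.09 with each mouse left out (past 0.05 without 6 of the 12). Without the pairing of polyp and epithelium (no replicate block) it kept 0.912 points with an exact permutation p of 0.0763, and 2.02% of sites were called.

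On log2 odds, where depth and methylation cannot be told apart at sites with few methylated reads, the mean over all sites was -0.730 log2 units (exact permutation p = 0.00433). By class it was -1.08 under 5% (exact permutation p = 0.00216), 1.03 at 5 to 20% (p = 0.0108), 0.709 at 20 to 50% (p = 0.00433), 0.169 at 50 to 80% (p = 0.383) and -0.389 at 80% or more (p = 0.234).

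Centering each library takes the interaction over all sites off that of every class, so a negative centered value restates that mean. Under 5% the interaction was -0.00271 points with raw percent, -0.0545 with raw percent without mouse 1841, -0.868 with centered libraries (exact permutation p = 0.0325), -0.0617 in mice under 8%, and 0.000700 to 0.127 with each mouse left out. At 80% or more it was -0.148, -0.639 and -0.251 points with the first 3 of these, -1.88 as a median, and -0.130 to 1.57 with each mouse left out. At 5 to 20% it passed 0.05 with the second lesion of mouse 1856 alone (3.19), as a median (4.69) and without mice 1841 and 1856 (3.20), and ran from 2.25 to 3.81 with each mouse left out. Without mouse 1856 both it and the class under 5% passed 0.05. At 50 to 80% it passed 0.05 with the second lesion alone (5.81), and without mouse 1839, 1800 or 1858, was 3.13 as a median (exact permutation p = 0.288), and ran from 4.12 to 6.74 with each mouse left out.

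The share of sites called stayed between 1.40 and 2.43% except for 0% with adjusted p-values. The positive share of calls was 70.9% with centered libraries, 73.9% in mice over 8%, 73.4% without mice 1805 and 1830, and 64.4% with raw percent without mouse 1841. Adjusted p-values left 65 sites in the quasi-binomial model and 0 to 1 with each mouse left out (1 without mouse 1848). The causes were not tested. Site D without mouse 1807, 1809 or 1856, site I without 1830 or 1848, site J without 1805, 1839 or 1848 or on log2 odds, and sites I and J without 1805 and 1830 fell short of an unadjusted p of 0.05. Named sites had as few as 24 reads in a library.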
